A study of Mus musculus with 8 samples.

Results

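The Hox genes of the mouse lie in 4 clusters, HoxA, HoxB, HoxC and HoxD, and the SMAD4 peaks of early limb buds were examined across all of them. The members were 38 listed Hox genes of 22238 annotated protein-coding genes, and all 38 were found in the annotation. A peak was counted as in-cluster when its centre lay between the outermost ends of the listed genes of a cluster. By this rule 8 of 2073 peaks of the E9.5 list and 17 of 6185 peaks of the E10.5 list were in a cluster, and 2 and 5 more lay in the 100 kb on either side.

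SMAD4 chromatin complexes were mapped by chromatin immunoprecipitation and sequencing (ChIP-seq) in NMRI embryos carrying Smad4Flag, an allele that adds a 3xFLAG epitope tag to the endogenous protein. All samples shared this genotype, the chromatin was precipitated with the M2 anti-FLAG antibody, and no sample without the tag was analysed here. The 8 samples formed 4 groups of 2, namely SMAD4 ChIP and input DNA of either stage. The E9.5 samples held forelimb buds together with trunk tissue from about 80 pooled embryos per replicate, which the protocol dates to E9.75. The E10.5 samples held fore- and hindlimb buds from about 100 pooled embryos per replicate, as the tissue label and the study's methods state, although another label names only the forelimb bud for every sample. Stage and dissected tissue therefore changed together and cannot be told apart. The tag marks SMAD4 in every cell that makes it, so the lists do not separate mesenchyme from other cells, and a list of bound regions does not allow the tissue to be checked by its expressed markers. The authors deposited 1 merged peak list per stage, so the values below have no replicate error, and the depth of the libraries is unknown. The score of a peak is the authors' own value, probably a MACS p-value as its negative log10 times 10, and it was ranked only within its list (rank 1 is the best score).

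Hox genes encode homeodomain transcription factors that give cells their position along the body axis and along the limb. In each cluster the genes stand in the order of their paralog groups, and they are activated in roughly this order in time and space (collinearity). Genes of the low-numbered (anterior) groups act in the hindbrain, neck and upper trunk, whereas those of the high-numbered (posterior) groups act in the lower trunk, and in HoxA and HoxD also in the growing limb bud. SMAD4 is the common partner of the receptor-activated SMADs that carry BMP and TGFβ signals to chromatin. It binds the short sequence CAGAC, the SMAD box, and GC-rich forms such as GGCGCC.

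The sequences below come from the best-scored in-cluster peak of each cluster and stage. Each is the SMAD sequence nearest to the peak centre on mm9, read on the strand named, with 10 bases on either side. The capitals mark CAGAC or GGCGCC. These matches lie from 23 bp (E10.5 HoxC) to 208 bp (E10.5 HoxA) from the centre, and each peak held from 4 to 26 SMAD matches. At Hoxd8 (E9.5, 201 bp), Hoxa4 and Hoxd11 (E10.5, 208 and 204 bp) they lie outside the 300 bp window searched below. A match somewhere in a peak is common, since CAGAC occurred in 94.0% of all E9.5 and 98.2% of all E10.5 peaks over their whole width.

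E9.5 HoxA, 3.06 kb upstream of a Hoxa3 start, chr6:52125548-52125572, minus strand: tttatggctgCAGACttaaatctcg
E9.5 HoxB, upstream of Hoxb4, chr11:96173541-96173565, plus strand: gcagtattcaCAGACccggggctgt
E9.5 HoxC, downstream of the Hoxc11 start, chr15:102790330-102790355, plus strand: acacaccccaGGCGCCcccaccccat
E9.5 HoxD, at Hoxd8, chr2:74542720-74542744, minus strand: ggcctcggagCAGACggtctctcct
E10.5 HoxA, at Hoxa4, chr6:52141155-52141180, plus strand: ccctcccggcGGCGCCacataccggc
E10.5 HoxB, at Hoxb2, chr11:96214797-96214821, plus strand: ttcttcgctgCAGACtcctgtctcc
E10.5 HoxC, downstream of the Hoxc12 start, chr15:102769644-102769668, plus strand: ctgtatttggCAGACtaccctgcag
E10.5 HoxD, at Hoxd11, chr2:74519655-74519679, minus strand: gacaagagtgCAGACcctggaaaaa

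The palindrome GTCTAGAC, in which GTCT is followed by its reverse complement, occurred in 1 in-cluster peak of each stage. These 2 sites were picked out after the search and are shown since the sequence is rare, occurring in 4.53% of all E9.5 peaks and 3.62% of all E10.5 peaks over their whole width. The first lies 0.282 kb from the centre of the HoxC peak at E9.5 and the second 2.15 kb from the centre of the Hoxa7 peak at E10.5. The capitals mark the palindrome, which reads the same on both strands.

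HoxC at E9.5, chr15:102790179-102790206, plus strand: aaagatcgcaGTCTAGACgccgccataa
Hoxa7 at E10.5, chr6:52169347-52169374, plus strand: caggcggtctGTCTAGACtcaggagact

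The question that the design raises for these genes is which parts of the clusters were bound at each stage. At E9.5, 7 of the 8 in-cluster peaks lay in the anterior parts (groups up to 8) and 1 in a posterior part (groups 9 and up). At E10.5, 9 lay in the anterior and 8 in the posterior parts. None of the 16 posterior genes had an E9.5 peak within 5 kb of a transcript start, and 9 of them had an E10.5 peak, among them Hoxa13 and Hoxd13, which pattern the digits and wrist. Over all protein-coding genes these shares were 3.22% and 15.6%, so that few of 16 genes would have an E9.5 peak at the genome-wide share. Of the 22 anterior genes, 7 had such a peak at E9.5 and 11 at E10.5.

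**Figure D1:**
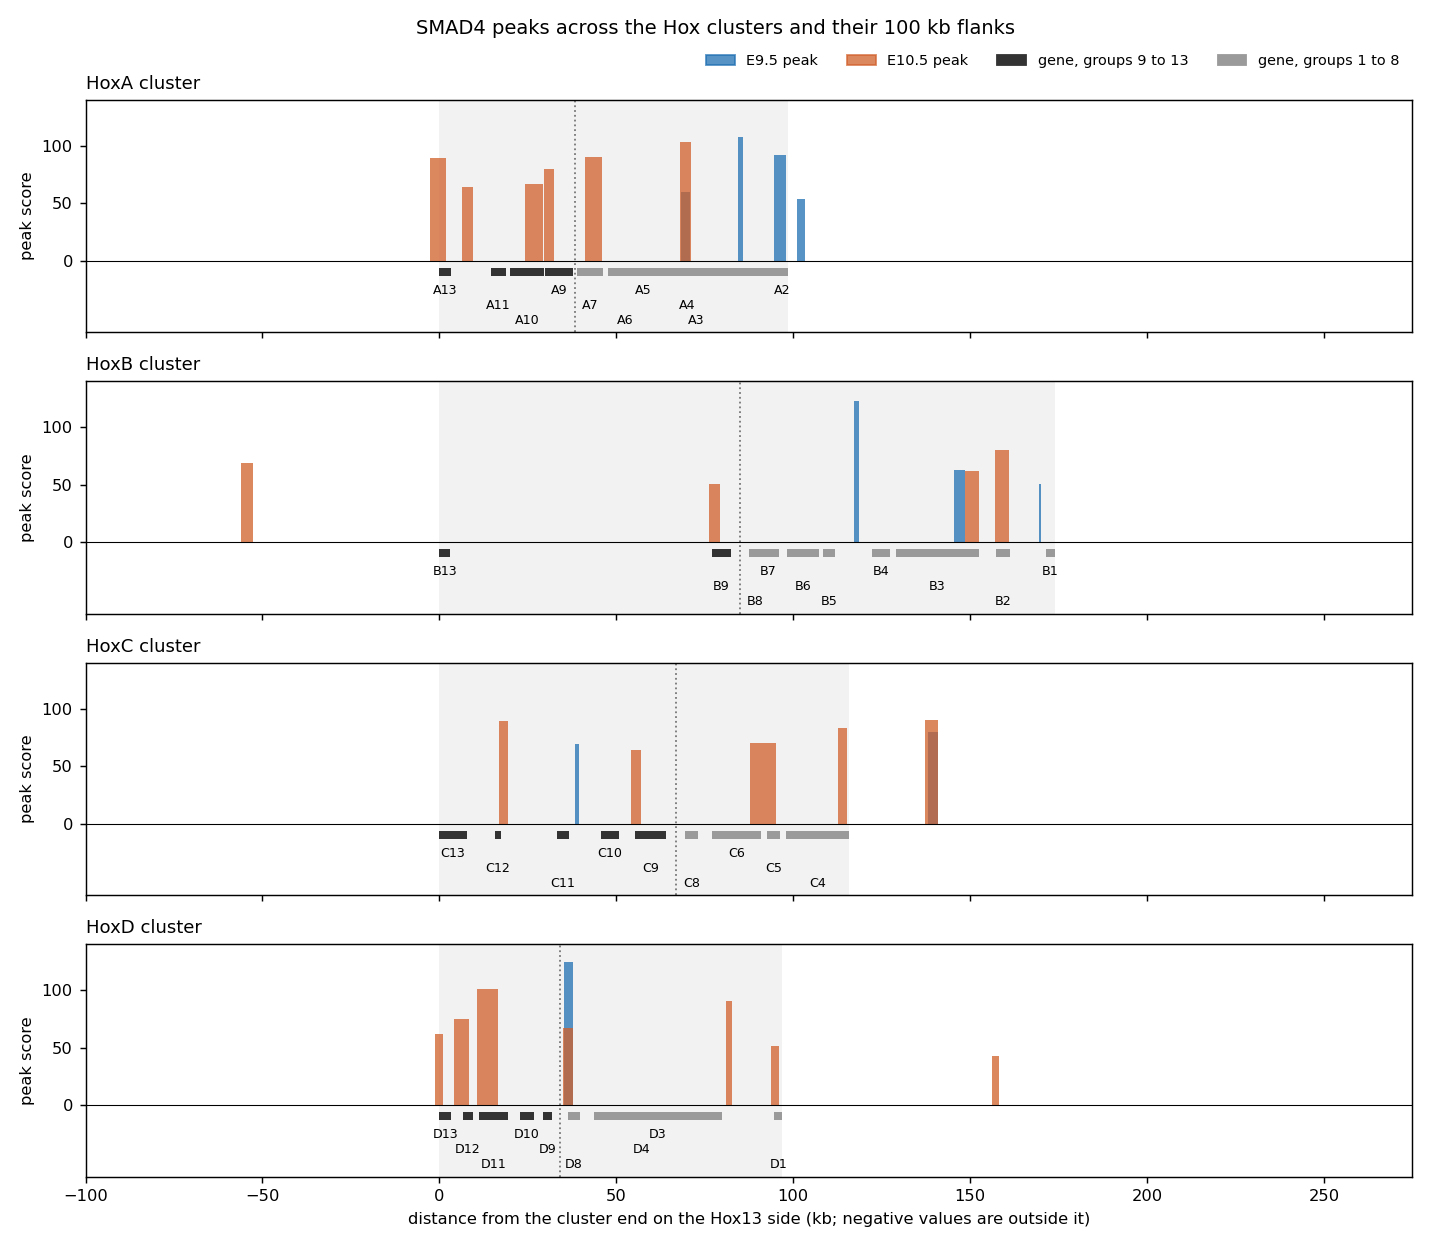
SMAD4 peaks along HoxA, HoxB, HoxC and HoxD, with distance in kb from the cluster end next to the Hox13 gene on the x-axis and the authors' peak score on the y-axis (blue E9.5, orange E10.5, darker where they overlap; scores are not comparable in level between stages). The grey field is the cluster, the dotted line separates posterior (left) from anterior (right) parts, and left of that line stands 1 blue bar, in HoxC, against 8 orange bars with centres in a cluster.

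The clusters were defined on mm9 with the GENCODE vM1 annotation. HoxA spans chr6:52112350-52210874 (98.5 kb, 10 listed genes on the minus strand). HoxB spans chr11:96055630-96229570 (174 kb, 10 genes), HoxC spans chr15:102751534-102867274 (116 kb, 9 genes) and HoxD spans chr2:74506367-74603200 (96.8 kb, 9 genes), all on the plus strand. Together they measure 485 kb, of which 261 kb were anterior and 224 kb posterior. HoxB lacks genes of groups 10 to 12, and the long interval between Hoxb9 and Hoxb13 held no peak centre at either stage.

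HoxA held 3 peaks at E9.5 and 5 at E10.5, HoxB 3 and 3, HoxC 1 and 4, and HoxD 1 and 5. The count was thus higher at E10.5 in HoxA, HoxC and HoxD and equal in HoxB. Over all 4 clusters there were 1.65 peaks per 100 kb at E9.5 and 3.50 at E10.5, against 0.0786 and 0.234 per 100 kb over chromosomes 1 to 19 and X. The clusters are also dense in genes, with 7.83 listed Hox genes per 100 kb against 0.843 protein-coding genes per 100 kb of the genome. Counted per gene, there were 0.211 peaks per listed Hox gene at E9.5 and 0.447 at E10.5, against 0.0932 and 0.278 peaks per protein-coding gene over the whole lists. As a share of its list, the in-cluster set was 0.386% of the E9.5 peaks (95% Wilson interval 0.196 to 0.760%) and 0.275% of the E10.5 peaks (0.172 to 0.440%). These intervals overlap and cover counting error only. The larger E10.5 counts thus came with a list that was longer as a whole, and the part played by sequencing depth was not tested. When the E10.5 list was shortened to its 2073 best-scored peaks, 10 in-cluster peaks were left, 40% of them posterior. These were 3 in HoxA, 1 in HoxB, 3 in HoxC and 3 in HoxD, so that at equal list length HoxA was equal between the stages and HoxB lower at E10.5. With a score of 100 or more, 3 in-cluster peaks were left at the earlier and 2 at the later stage.

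The length under peaks was also mostly anterior at E9.5, but not at E10.5. E9.5 peaks covered 5.77% of the anterior and 0.591% of the posterior length. E10.5 peaks covered 12.7% and 14.6%. Over chromosomes 1 to 19 and X, E9.5 peaks covered 0.118% of the length and E10.5 peaks 0.745%. In HoxA the posterior part went from 0% to 33.8% and in HoxD from 0% to 32.4%, the highest values of any cluster part. In HoxB the posterior part went from 0% to 3.55%, and in HoxC from 1.98% to 8.47%. HoxC was the reverse of the other clusters at E9.5, since its single peak was posterior and its anterior part was bare, whereas 20.7% of that anterior part was covered at E10.5. Widths differed between the lists as a whole, with a median of 1244 bp at E9.5 and 2552 bp at E10.5, so that covered lengths are to be read within a stage.

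**Figure D2:**
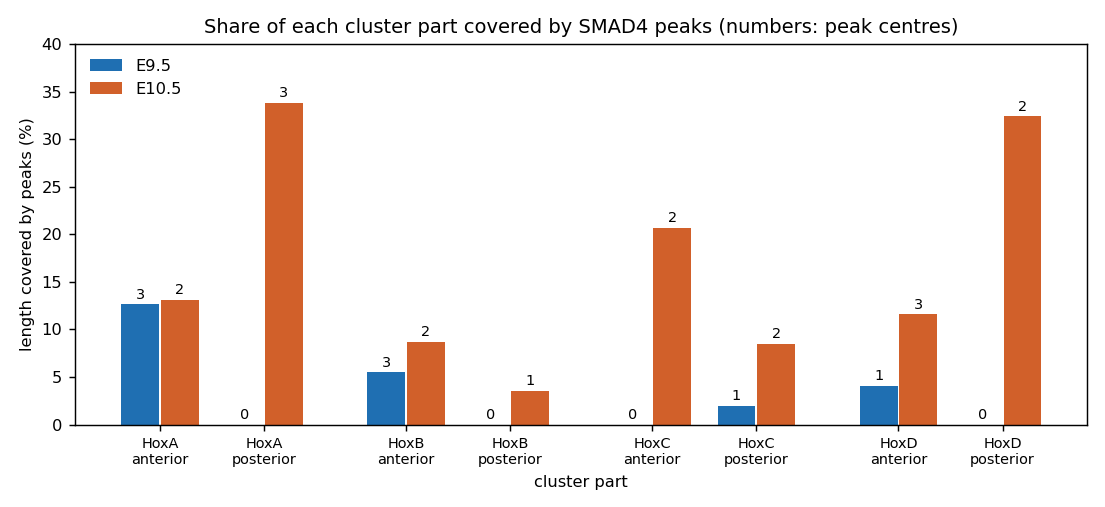
Percent of the length of each cluster part covered by SMAD4 peaks at E9.5 (blue) and E10.5 (orange), with the number of peak centres above each bar. The posterior parts of HoxA, HoxB and HoxD are at 0% at E9.5 and between 3.55% and 33.8% at E10.5.

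The posterior share of in-cluster peaks was 12.5% at E9.5 (95% Wilson interval 2.24 to 47.1%, 1 of 8) and 47.1% at E10.5 (26.2 to 69.0%, 8 of 17). The posterior parts make up 46.2% of the cluster length and hold 42.1% of the listed genes. The intervals of the stages overlap, and with 8 peaks at E9.5 the share is known only roughly. It also moved with the place of the cut, to 25% and 64.7% with a cut between groups 5 and 6, and to 12.5% and 29.4% with a cut between groups 9 and 10.

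In HoxA at E9.5, 3 peaks stood at the anterior end. The first, chr6:52112937-52116277, covered the start of Hoxa2, a gene of the second branchial arch and hindbrain, with a score of 92.2 (rank 247). The second, chr6:52124936-52126478, lay in an intron of the long Hoxa3 model, 3.06 kb upstream of an internal start, with a score of 107 (rank 174). The third, chr6:52139922-52142632, covered the start and coding exon of Hoxa4 with a score of 59.7 (rank 818). All 3 fell within groups 2 to 4, and none was found from Hoxa5 to Hoxa13.

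At E10.5 the HoxA peaks were spread from Hoxa4 to Hoxa13, and Hoxa2 had none within 5 kb, the nearest being 26.0 kb away. The Hoxa4 start was covered again, by chr6:52139871-52142879 with a score of 103 (rank 454), the best-ranked in-cluster peak of that list. A 4883 bp peak at Hoxa7, chr6:52164772-52169654, had a score of 90.5 (rank 762). Its centre also lay 3.88 kb upstream of the outermost annotated start of Hoxa3, and this is the reason why Hoxa3 counts as having a peak at both stages, at sites far apart. Hoxa9 was covered by chr6:52178400-52181258 with a score of 80.1 (rank 1160), and Hoxa10 by the adjoining chr6:52181644-52186769 with a score of 66.4 (rank 2189). A further peak, chr6:52201433-52204617 with a score of 63.9 (rank 2502), lay between Hoxa11 and Hoxa13, 6.81 kb upstream of the Hoxa11 start. Hoxa11, a gene of the forearm segment of the limb, therefore had no peak within 5 kb. The start of Hoxa13 was covered by chr6:52209057-52213647 with a score of 89.4 (rank 793), and its centre lay 0.478 kb outside the cluster.

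HoxB had 3 peaks at either stage, and none of them overlapped a peak of the other stage. Over the whole lists 18.7% of E9.5 peaks and 6.26% of E10.5 peaks did. The best-ranked E9.5 peak of HoxB, chr11:96172799-96174188 with a score of 122 (rank 139), lay between genes, 4.5 kb upstream of Hoxb4. At Hoxb3 the peak of the earlier stage (chr11:96201204-96204074, score 62.8, rank 679) and that of the later stage (chr11:96204314-96208174, score 62.0, rank 2768) lay side by side over internal starts, 239 bp apart and without overlap. The narrowest in-cluster peak of all, 639 bp at chr11:96224999-96225637 with a score of 50.6 (rank 1583), lay 1.75 kb upstream of Hoxb1 at E9.5. Hoxb1 and Hoxb4 had no E10.5 peak within 5 kb, the nearest centres being 12.4 and 28.2 kb away. At E10.5 the others were at Hoxb2 (chr11:96212741-96216595, score 79.9, rank 1170) and Hoxb9 (chr11:96131869-96134887, score 50.3, rank 5268). The peak at Hoxb9 was the lowest-ranked of the 17. Of the run from Hoxb5 to Hoxb8, no gene had a peak within 5 kb at either stage.

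In HoxC the only E9.5 peak, chr15:102789813-102791137 with a score of 69.5 (rank 491), lay between Hoxc11 and Hoxc10, 5.62 kb downstream of the Hoxc11 start and thus just beyond the 5 kb limit. No HoxC gene was counted at E9.5. At E10.5, 4 peaks were placed at 5 genes. The peak chr15:102768340-102771019 (score 89.4, rank 795) lay 2.49 kb downstream of the Hoxc12 start, with its centre beyond the end of that gene, and chr15:102805583-102808557 (score 64.5, rank 2442) covered a Hoxc9 start. The widest in-cluster peak, 7456 bp at chr15:102839244-102846699 (score 70.0, rank 1820), ran over starts of Hoxc5 and Hoxc6, and chr15:102864069-102866740 (score 83.6, rank 1004) over an internal start of Hoxc4.

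HoxD had a single E9.5 peak, at Hoxd8 (chr2:74541660-74544206, score 125, rank 137), and it was the best-ranked of the 8. The same region held an E10.5 peak (chr2:74541241-74544197, score 67.0, rank 2127). Hoxd8 stands next to the posterior genes that are active in the limb bud, and its peak is the one closest to the cut between the parts. At E10.5 the peaks at the posterior end followed each other closely. Hoxd11 was covered by a 5877 bp peak, chr2:74516933-74522809, with a score of 101 (rank 505), and Hoxd12 by chr2:74510613-74514754 with a score of 74.9 (rank 1449). The Hoxd13 start was covered by chr2:74505139-74507395 with a score of 61.8 (rank 2794), whose centre lay 0.1 kb outside the cluster. Hoxd9 and Hoxd10, between Hoxd8 and Hoxd11, had no peak within 5 kb. In the anterior part of HoxD, an E10.5 peak lay 4.44 kb downstream of an internal Hoxd3 start (chr2:74587250-74589097, score 90.3, rank 771). It stood wholly beyond the end of that gene. Another E10.5 peak covered the Hoxd1 start (chr2:74600003-74602472, score 51.6, rank 4871).

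The peaks over Hoxa13 and Hoxd13 show how the boundary of the rule acts, since both overlap a cluster but have their centres just outside. Counting any overlap with a cluster gave 19 in-cluster peaks at E10.5, 52.6% of them posterior, and left the E9.5 count at 8. The posterior share under this setting was added after the data had been seen.

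By gene, 7 of the 38 listed Hox genes (18.4%, 95% Wilson interval 9.22 to 33.4%) had an E9.5 peak within 5 kb of a start, against 3.22% of all protein-coding genes. At E10.5 these were 20 of 38 (52.6%, 37.3 to 67.5%), against 15.6%. A peak at both stages was found for 4 genes, Hoxa3, Hoxa4, Hoxb3 and Hoxd8, against 1.51% of protein-coding genes. These 4 could only be anterior, since no posterior gene had an E9.5 peak. At Hoxa3 and Hoxb3 the peaks of the stages did not overlap. Only at E9.5 a peak was found for Hoxa2, Hoxb1 and Hoxb4, and only at E10.5 for 16 genes. The remaining 15 genes had none at either stage. Hox genes neighbour each other, and 1 peak can serve a pair of genes, so that they are not independent observations. With peaks over the gene body in place of the start, 5 and 19 of 38 genes were bound, against 5.3% and 19.4% of protein-coding genes.

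**Figure D3:**
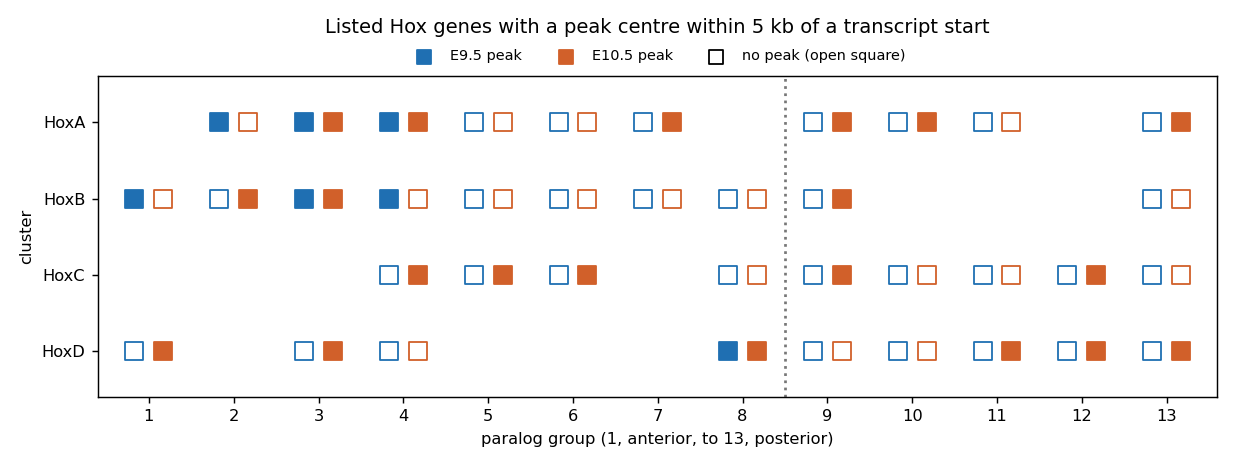
The 38 listed Hox genes by paralog group (x-axis) and cluster (y-axis), with a filled square where a peak centre lies within 5 kb of an annotated transcript start at E9.5 (blue, left) or E10.5 (orange, right) and an open square where none does. Right of the dotted line, which separates groups 1 to 8 from groups 9 to 13, no blue square and 9 orange squares are filled.

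The E9.5 genes were gathered in the lowest groups. Among the 11 genes of groups 1 to 4, 6 had a peak at the earlier stage and 7 at the later stage. For the 11 genes of groups 5 to 8, 1 and 4 had one, and for the 16 genes of groups 9 to 13, 0 and 9. This finer division was made after the values had been seen. The share at E9.5 was 31.8% of the anterior genes (16.4 to 52.7%) and 0% of the posterior genes (0 to 19.4%, an interval that includes the 3.22% of all protein-coding genes), and at E10.5 it was 50% (30.7 to 69.3%) and 56.2% (33.2 to 76.9%). The distance from a posterior gene to its nearest E9.5 peak ranged from 5.62 kb for Hoxc11 to 118 kb for Hoxb13. It was 6.75 kb for Hoxc10 and 7.20 kb for Hoxd9, the next closest, so that a wider limit would count these genes too. Within the 2073 best-scored E10.5 peaks, 14 listed genes were counted, 8 anterior and 6 posterior (Hoxa9, Hoxa10, Hoxa13, Hoxc12, Hoxd11 and Hoxd12), against 7.38% of protein-coding genes. Hoxa10 was counted there only through the Hoxa9 peak, since the peak over its own start ranks lower, so that both genes rest on 1 peak.

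At several genes the peak lay at an internal transcript start, and the choice of start bears on the count. With the outermost start of each gene alone, 5 genes were counted at E9.5 and 15 at E10.5. Those that dropped out were Hoxa3 and Hoxb3 at E9.5, and Hoxa10, Hoxb3, Hoxc4, Hoxc6 and Hoxd3 at E10.5. Some of these long models run across neighbouring Hox genes, and a peak in a shared stretch cannot be assigned to 1 gene.

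Few sites were common to both stages. The pair at Hoxa4 overlapped by 2711 bp, so that the E9.5 peak lay wholly inside the E10.5 peak, and the pair at Hoxd8 overlapped by 2538 bp. These were 2 of 8 in-cluster peaks at E9.5 (25%, 7.15 to 59.1%), where 18.7% of the whole list overlapped the other stage. They were 2 of 17 at E10.5 (11.8%, 3.29 to 34.3%), where 6.26% of the list did. Both intervals include the share of the list. Within its own list, the Hoxa4 peak stood at 39.5% of the ranks at E9.5 and at 7.34% at E10.5, and the Hoxd8 peak at 6.61% and 34.4% (0% is the best score). The difference in level between the stages was not tested.

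Of the 8 flanks, 2 held a peak at the earlier stage and 5 at the later stage, which is 0.25 and 0.625 per 100 kb. The anterior flank of HoxC held 1 more shared site, which overlapped by 2806 bp between chr15:102889594-102892530 (score 79.4, rank 344) at E9.5 and chr15:102888641-102892399 (score 89.8, rank 787) at E10.5. Both peaks were intergenic, and the nearest coding gene was Hoxc4, whose closest start lay 26.2 and 25.7 kb away. The other E9.5 flank peak (score 53.3, rank 1256) lay 3.70 kb beyond the anterior end of HoxA. HoxA was bounded by the listed genes, and the E9.5 counts of 8 in-cluster and 2 flank peaks depend on this bound. At E10.5, besides the peaks at Hoxa13 and Hoxd13, 1 peak (chr11:95999585-96003003, score 69.0) lay in an intron of Ttll6, 54.3 kb from Hoxb13, and 1 (chr2:74662621-74664619, score 42.6) lay near Mtx2, a mitochondrial membrane gene, 62.6 kb from Hoxd1.

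The in-cluster peaks were well placed in their lists. At E9.5 the scores ran from 50.6 to 125 with a median of 80.8, against 56.3 for the whole list, and 7 of 8 were in the better-ranked 50%. At E10.5 they ran from 50.3 to 103 with a median of 74.9, against 59.8, and 15 of 17 were in the better-ranked 50%. The very highest scores were elsewhere, since the lists reach 3100 and 2155. A score of 100 or more was found for 3 of 8 at E9.5 (37.5%, 13.7 to 69.4%), namely near Hoxa3, Hoxb4 and Hoxd8, against 10.0% of the list, and for 2 of 17 at E10.5 (11.8%), Hoxa4 and Hoxd11, against 8.44%. The peaks were also wide, with a median of 2045 bp at E9.5 and 3019 bp at E10.5.

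**Figure D4:**
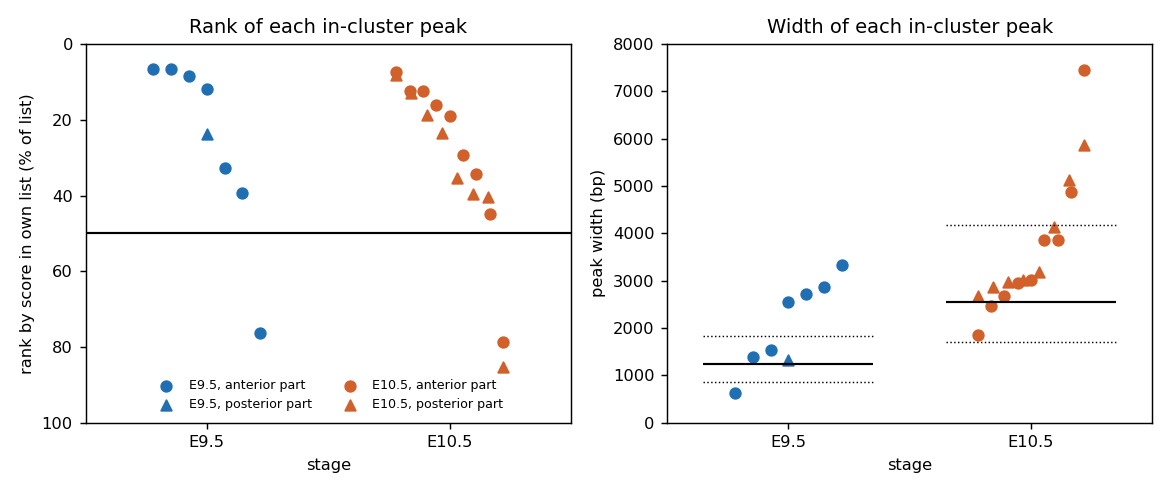
Left, rank of each in-cluster peak by score as a percent of its own list (0 is the best score), with a line at 50%. Right, width of each in-cluster peak in bp, with the median of the whole list (solid line) and its quartiles (dotted lines). Circles are anterior and triangles posterior, and 1 blue and 2 orange points lie below the line at 50%.

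Anterior and posterior E10.5 peaks overlapped in these values. The 9 anterior peaks had a median score of 79.9 and a median width of 3009 bp, and the 8 posterior peaks had 70.6 and 3102 bp, with ranges that overlapped almost fully (51.6 to 103 and 50.3 to 101 for the score). The median GC content around the centre was 66% in the anterior and 59.3% in the posterior peaks.

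Most E10.5 in-cluster peaks covered an annotated transcript start, which at Hoxa7, Hoxa10, Hoxb3 and Hoxc4 was an internal one. A listed Hox start was covered by 14 of the 17 in-cluster peaks at E10.5 (82.4%, 59.0 to 93.8%), where 44.7% of the list covered a protein-coding start. At E9.5 it was 4 of 8 (50%, 21.5 to 78.5%) against 24.6%. The centres fell in a coding exon 7 times, in an intron 5 times, in a non-coding exon 2 times and between genes 3 times at E10.5. At E9.5 these numbers were 2, 3, 0 and 3, so that 3 of 8 were intergenic (near Hoxb4, Hoxb1 and Hoxc11). Starts stand close together in the clusters, and the part this has in the shares was not tested. Antisense and other non-coding transcripts overlap many of these sites, such as Hoxb3os at Hoxb3 and Hoxb2 and 1700109F18Rik at Hoxd8, and a peak list cannot tell which transcript a site belongs to.

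The 300 bp around each centre were searched on both strands for short binding sequences. CAGAC was found in 4 of 8 peaks at E9.5 and 9 of 17 at E10.5 (50% and 52.9%), against 60.6% and 53.2% of the whole lists. CAGACC, which contains CAGAC, was found in 3 of 8 and 3 of 17, against 20.9% and 19.7%. GGCGCC was found in 2 of 8 (25%, 7.15 to 59.1%) against 12.6% at E9.5, and in 6 of 17 (35.3%, 17.3 to 58.7%) against 13.1% at E10.5. The interval at E10.5 lies above the share of the list. Over the whole peak it was found in 5 of 8 E9.5 peaks (62.5%, 30.6 to 86.3%) against 26.1%, and in 16 of 17 E10.5 peaks (94.1%, 73.0 to 99.0%) against 44.0%. Both of these intervals lie above the share of the list, and the median in-cluster peak is wider than the median peak of its list. The GC content and the number of CpG dinucleotides moved with it. The median window held 63% G and C and 18 CpG in the clusters at E10.5, against 55% and 7 over the list, and 55% and 13 at E9.5, against 53% and 5. Their part in the GGCGCC counts was not tested.

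TALE homeodomain proteins of the MEIS, PREP and PBX families bind DNA together with HOX proteins, and their sequences were sought as well. TGACAG, bound by MEIS and PREP, was found in 0 of 8 windows at E9.5 (0 to 32.4%) and 1 of 17 at E10.5 (5.88%, 1.05 to 27.0%), against 20.2% and 18.9% of the lists. Both intervals include the share of the list. In 500 bp the counts were the same, against 31.5% and 29.7%, and the E10.5 interval then lay below the share of the list. Over whole peaks TGACAG was found in 5 of 8 (62.5%) and 11 of 17 (64.7%), against 61.8% and 79.6%. TGATTGAC, bound by PBX with PREP, was in no window, against 0.482% and 0.437% of the windows of the lists, and in no whole peak, against 3.23% and 5.30% of whole peaks. GTCTAGAC was in no window, against 1.21% and 0.420%. A match is a stretch of letters and does not show that a protein was bound there.

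The clusters also hold microRNAs, which repress Hox and other messages, and those of the miR-10 and miR-196 families lie at matching places in several clusters. Mir196b, next to Hoxa9, lay inside the Hoxa9 peak at E10.5, 0.335 kb from its centre, and Mir615 inside the Hoxc5 peak, 2.37 kb from its centre. No microRNA of the 6 examined lay inside an E9.5 peak. E9.5 peaks covered 3.37% of the length of the clusters and E10.5 peaks 13.5%, so few of 6 loci would lie inside at that coverage. The closest E9.5 case was Mir10a, 4.99 kb from the centre of the peak upstream of Hoxb4. The mature sequences, from RefSeq (GRCm38.p6), are shown with the seed (bases 2 to 8) in capitals, so that the shared seeds can be seen.

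miR-196b-5p: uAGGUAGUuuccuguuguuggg
miR-196a-5p: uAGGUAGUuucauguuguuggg
miR-615-3p: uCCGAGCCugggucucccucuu
miR-10a-5p: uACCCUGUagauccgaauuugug
miR-10b-5p: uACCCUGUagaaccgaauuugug

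Although miR-196a-5p shares its seed with miR-196b-5p, its loci in HoxB and HoxC were not inside a peak, with centres 6.90 and 3.30 kb away at E10.5. The miR-10 loci in HoxB and HoxD were 27.8 and 21.4 kb from an E10.5 centre.

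Genes that work with the Hox genes were counted in the same way. Of 8 genes for TALE partners, 0 had a peak within 5 kb at the earlier stage and 5 at the later stage, beside 3.22% and 15.6% of protein-coding genes. These were Meis1, Meis2, Pbx2, Pbx3 and Pknox1 (which encodes PREP1), with scores from 53.5 at Meis1 to 61.8 at Meis2. The Pbx2 peak lay 4.99 kb upstream of the start, at the edge of the limit, and the other 4 within 1.31 kb. An E10.5 score of 63.9 has rank 2502, so that none of these 5 peaks is among the 2073 best-scored E10.5 peaks. Of 7 genes that set Hox activity along the body axis, 0 and 2 had a peak, namely Gdf11 (score 68.6), a TGFβ family ligand of the trunk-to-tail transition, and Rara (score 62.4), a retinoic acid receptor. The Rara peak is outside the 2073 best-scored as well. Of 11 limb genes known to depend on Hox genes, 1 had an E9.5 peak, Bmp4 (score 70.2), and 0 had one at E10.5. Shh, Grem1, Hand2 and Gli3 were among those without a peak within 5 kb, and enhancers farther away were not counted here.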

How the data were processed

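Reads were aligned to mm9 with Bowtie 1.1.0 and peaks called with MACS 1.4 against input, per the submitters' processing notes and the study's methods. The authors merged both replicates of a stage with MSPC and deposited 1 list per stage with a score per peak. The deposited score has no named unit. Per the study's methods each merged peak received its best MACS p-value, and the range of the scores would match the negative log10 of a p-value times 10. It was used for ranks and a minimum of 100 only. The lists give no values per replicate, the depth is unknown, and no test was run. Absence of a peak does not show absence of binding. Input libraries served the peak calling alone.

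Peaks were placed on GENCODE vM1 (mm9) by their centre, with Python 3.11.15, NumPy 2.4.6, pandas 2.3.3, SciPy 1.17.1 and Matplotlib 3.10.9. Parts were separated midway between the last gene of group 8 or lower and the first of group 9 or higher. Flanks measured 100 kb, and overlaps of 1 bp or more counted as shared. Counting was tested on simulated data. Coordinates are 1-based. The named genes are all listed Hox genes with a peak, all in-cluster peaks, the best-scored peak of each flank and stage (no flank held more than 1 per stage) and the genes of 3 further lists. The members and lists were chosen with earlier results of these data known. Some loci are not reported here.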

Additional observations from a re-analysis of the deposited data

How the results depend on the processing

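Of 48 alternatives, 28 left the value within the limit set for it (1.5 times for a count) and 20 moved it. A minimum score of 100 left 3 and 2 in-cluster peaks (earlier and later stage), 0 and 0 flank peaks, 3 and 2 genes within 5 kb, 0 and 0 shared peaks and a posterior share of 0% at E9.5, because few peaks reach it. Shortening the E10.5 list to 2073 peaks left 10 in-cluster and 3 flank peaks and 1 shared peak for each stage. Flanks of 500 kb held 9 and 23 peaks, and flanks of 50 kb held 3 at E10.5. A limit of 10 kb gave 12 genes at E9.5. CAGAC was found in 87.5% of E9.5 windows of 500 bp and in 100% and 100% of whole peaks, since longer stretches hold more matches. The posterior share moved with the cut between the parts, but within its interval. Cut between groups 5 and 6 it was 25% and 64.7%, and between groups 9 and 10 it was 12.5% and 29.4%.

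No paired analysis was possible because both replicates of a stage were merged in the deposited lists, and for the same reason no replicate could be left out. With 8 and 17 peaks, differences between clusters or parts are limited by counting error.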
